A study of Rattus norvegicus with 45 samples.

Results

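The genes described here are markers of the bile duct lining and of liver progenitor cells, measured in the livers of rats given a triazole fungicide. The set was a list of 9 genes, Epcam, Krt19, Krt7, Krt8, Krt18, Sox9, Spp1, Cd24 and Anxa4, and every probe set that the platform annotation gave to one of these symbols was taken. This gave 9 probe sets of 8 genes, out of 31042 probe sets tested, which carried 14217 single gene symbols. Anxa4 had 2 probe sets, called probe set 1 and probe set 2 below, and Sox9, a transcription factor of duct and progenitor cells, had no probe set under its symbol and has no value here. The members were chosen by symbol with measured values of these arrays in view. Which of those values led to the choice is not recorded, so the differences and adjusted p-values below describe the members and are not independent evidence for the choice.

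Bile ducts are lined by cholangiocytes, epithelial cells that modify bile and that share many surface and cytoskeletal proteins with the progenitor cells which appear around the portal tract after some liver injuries. Epcam is a cell surface adhesion protein found on duct and progenitor cells and on few mature hepatocytes. Keratins form filaments from an acidic and a basic partner: hepatocytes make mainly the pair Krt8 and Krt18, whereas cholangiocytes also make Krt7 and Krt19. Spp1 (osteopontin) is a secreted phosphoprotein made by duct cells and by activated macrophages, Cd24 is a small lipid-anchored surface glycoprotein, and Anxa4 is an annexin, a protein that binds phospholipid membranes when calcium is present.

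The study measured liver RNA from adult male Sprague-Dawley rats aged 10 weeks on Affymetrix Rat Genome 230 2.0 arrays, 1 array to a sample. Myclobutanil and triadimefon, both conazole (triazole) antifungals, were given by gavage for 6 h, 24 h or 14 days, and controls were taken at each time, so that 9 groups of 5 arrays made 45. The doses named for the series were 225 mg/kg/day for myclobutanil and 175 mg/kg/day for triadimefon; the vehicle of the controls is not given in the sources used here. The series text speaks of 15 livers and the labelling protocol of 3 rats per group, against 45 titled arrays. If some arrays shared a liver, the p-values measure a spread that is partly technical.

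The deposited values are scores on a log-type scale whose base is not stated, centred near 0 on every array (array medians -0.0115 to 0.0332). Differences are therefore given in score units with no fold change, and a score of 0 marks about the middle of an array. Each comparison came from 1 limma fit over all 31042 probe sets, with p-values adjusted by Benjamini-Hochberg over all of them and a threshold of 0.05; a probe set past it is said to have risen or fallen. The brightest 1% of probe sets began at a score of 2.69 on the dimmest array and 3.52 on the brightest, so bright genes also carry how far each array was stretched, and every difference was recomputed after quantile normalization, which gives all arrays one distribution. The 13 hepatocyte genes measured had mean scores between 2.07 and 4.88 and all lay above the array middle, which is the check of the tissue. Of 24 other bile duct genes measured, 12 had a mean score under 0, which places them below the array middle. In whole liver RNA, a change in the number of cells of a type and a change of RNA per cell cannot be told apart.

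Over the 6 comparisons of a fungicide with the controls of its own time, 7 of the 54 entries (9 probe sets in each of 6 comparisons) passed the threshold, and 4 of the 9 probe sets passed it at least in 1. Of these 7 entries, Anxa4 probe set 1 gave 3 and probe set 2 gave 1. The share of all probe sets that passed ran from 0.38% (myclobutanil, 6 h) to 8.47% (myclobutanil, 24 h). It was 7.98% for triadimefon at 24 h. Epcam rose after 14 days of either compound. Krt8 and Anxa4 probe set 1 rose after 14 days of myclobutanil, with calls that were lost in 8 of the 10 fits that left out 1 array. Probe set 2 of Anxa4 missed the threshold there (limma, adjusted p = 0.119), as did probe set 1 after quantile normalization (adjusted p = 0.128). Both Anxa4 probe sets fell at 24 h of triadimefon, and probe set 1 also at 24 h of myclobutanil. Krt18 passed in no comparison on the deposited scale, and Krt19, Krt7, Spp1 and Cd24 passed in none on either scale.

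**Figure D1:**
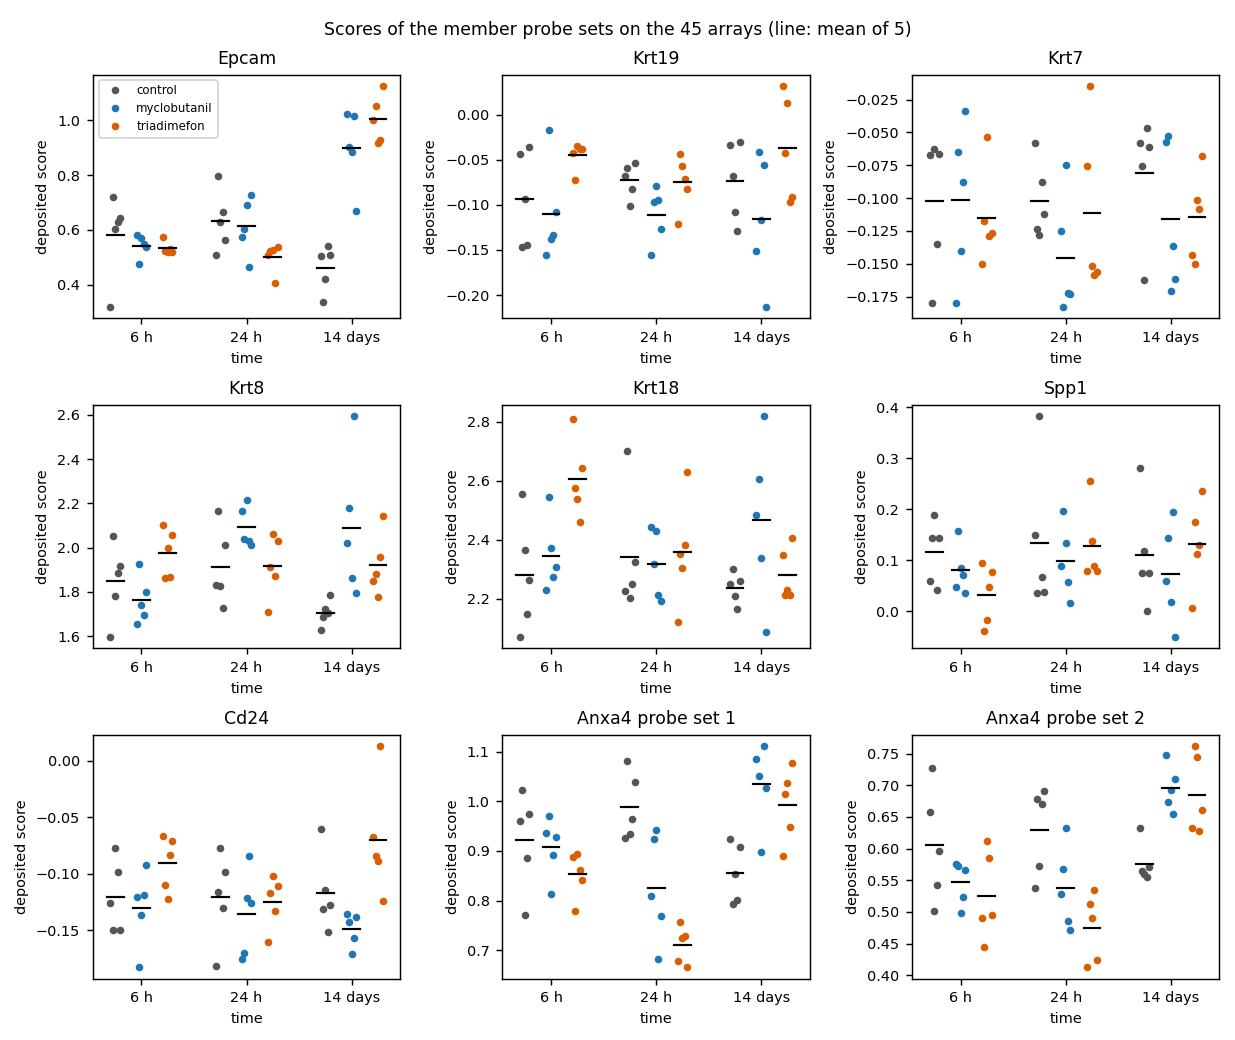
Deposited scores of the 9 member probe sets on the 45 arrays, by time (x axis) and group (grey control, blue myclobutanil, orange triadimefon). Each point is 1 array, each line the mean of 5, and each panel has its own score axis. The 10 treated Epcam values at 14 days lie between 0.671 and 1.13, above the 5 controls of that time, and both Anxa4 probe sets lie lowest in the triadimefon group at 24 h.

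The sequence upstream of a gene is shown for the 4 members whose values the results turn on. Each is the 250 bases before the RefSeq transcription start (assembly GRCr8), 5′ to 3′ on the strand of the gene, and 6 of the 9 members had an entry, all but Krt19, Krt7 and Sox9. Capitals mark matches to the AP-1 motif TGANTCA and to the TATA motif TATAAA, searched on both strands. The Epcam window is chr6:12649679-12649928 on the minus strand, the Krt8 window chr7:135010340-135010589 on the minus strand, the Krt18 window chr7:135035918-135036167 on the plus strand and the Anxa4 window chr4:120798514-120798763 on the minus strand.
Epcam: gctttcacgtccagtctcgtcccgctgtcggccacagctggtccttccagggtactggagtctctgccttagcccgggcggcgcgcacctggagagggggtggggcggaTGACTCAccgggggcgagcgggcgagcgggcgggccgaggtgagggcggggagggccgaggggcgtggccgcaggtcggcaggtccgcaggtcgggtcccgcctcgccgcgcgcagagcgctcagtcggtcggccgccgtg
Krt8: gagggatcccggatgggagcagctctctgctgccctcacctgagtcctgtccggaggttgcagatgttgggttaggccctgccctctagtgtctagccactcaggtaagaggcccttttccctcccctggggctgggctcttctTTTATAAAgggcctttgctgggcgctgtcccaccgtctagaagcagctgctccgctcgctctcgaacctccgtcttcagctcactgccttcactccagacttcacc
Krt18: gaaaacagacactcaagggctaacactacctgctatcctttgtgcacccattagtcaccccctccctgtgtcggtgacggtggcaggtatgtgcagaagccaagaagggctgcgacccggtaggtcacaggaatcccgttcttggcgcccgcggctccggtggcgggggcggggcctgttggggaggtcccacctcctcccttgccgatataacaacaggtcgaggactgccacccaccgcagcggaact
Anxa4: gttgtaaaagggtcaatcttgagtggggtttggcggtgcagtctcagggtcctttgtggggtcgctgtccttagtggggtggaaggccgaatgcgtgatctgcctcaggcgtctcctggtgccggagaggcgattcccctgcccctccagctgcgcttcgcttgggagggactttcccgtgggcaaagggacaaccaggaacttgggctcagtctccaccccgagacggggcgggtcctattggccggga
The Epcam window has no TATAAA match and 75.6% G and C bases. It holds 4 copies of the GC box letters GGGCGG and 1 AP-1 match at 141 to 135 bases before the start. Of 33469 promoter windows of this length in the same table, 6.34% held the AP-1 letters and 30.5% a GC box. The Krt8 window holds TATAAA on both strands, as overlapping matches between 106 and 99 bases before the start, letters that 12.9% of the windows held. Krt8 and Krt18 are neighbouring genes in the annotation, and the Krt18 window holds no TATAAA match but 1 GC box. The Anxa4 window holds 1 GC box and 1 CCAAT match, the latter found in 34% of windows. These matches describe the letters in these windows and nothing was measured on them.

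Epcam, the adhesion protein of duct and progenitor cells, stood near the same level in all groups up to 24 h and was higher in both treated groups at 14 days. In the 14-day controls the scores of arrays 1 to 5 were 0.506, 0.336, 0.422, 0.543 and 0.508. After 14 days of myclobutanil they were 1.02, 0.903, 0.885, 1.02 and 0.671, and after 14 days of triadimefon 1.0, 1.05, 0.917, 0.927 and 1.13. Neither treated group overlapped with the controls of that time, and array 5 of myclobutanil was the lowest treated array. The means were 0.463 ± 0.0837 (SD, n = 5) in controls, 0.899 ± 0.142 with myclobutanil and 1.0 ± 0.0879 with triadimefon.

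Epcam rose by 0.44 score units (SE 0.06, limma, adjusted p = 2.03e-05) with myclobutanil and by 0.54 (SE 0.06, limma, adjusted p = 8.91e-08) with triadimefon at 14 days, in 5 of 5 arrays each. These were the 48th and the 46th highest differences among all 31042 probe sets. After quantile normalization they were 0.40 (adjusted p = 1.59e-05, limma) and 0.51 (adjusted p = 2.51e-08, limma). Of the 5 arrays in each group, 4 with myclobutanil and 5 with triadimefon were above all 15 controls of the 3 times, the highest of which scored 0.796. The triadimefon mean was 0.11 above the myclobutanil mean (95% interval -0.02 to 0.23, limma, adjusted p = 0.473), so the treatments as given, at different doses, were not told apart by this probe set.

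At 6 h the control scores of Epcam were 0.319, 0.719, 0.602, 0.631 and 0.644, with myclobutanil 0.583, 0.477, 0.570, 0.548 and 0.537, and with triadimefon 0.574, 0.525, 0.520, 0.532 and 0.520. The control group was the widest of these, its array 1 lying far below the other 4. At 24 h the controls scored 0.508, 0.796, 0.629, 0.667 and 0.565, the myclobutanil arrays 0.573, 0.605, 0.692, 0.467 and 0.728, and the triadimefon arrays 0.508, 0.525, 0.526, 0.408 and 0.537. Treated and control arrays overlapped at both times, and the 4 early differences ran from -0.13 (triadimefon at 24 h, limma, adjusted p = 0.178) to -0.02, none past the threshold.

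By group mean, Epcam ran in the order triadimefon and myclobutanil at 14 days, then control at 24 h (0.633), myclobutanil at 24 h (0.613), control at 6 h (0.583), myclobutanil at 6 h (0.543), triadimefon at 6 h (0.534), triadimefon at 24 h (0.501) and control at 14 days (0.463). The 7 lower groups had overlapping arrays from one neighbour to the next. The 14-day controls were 0.12 lower than those at 6 h, a difference that missed the threshold (limma, adjusted p = 0.28). Against its own controls, the Epcam difference at 14 days was larger than that at 24 h by 0.46 for myclobutanil (limma interaction, adjusted p = 0.0014) and by 0.67 for triadimefon (adjusted p = 3.68e-06).

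**Figure D2:**
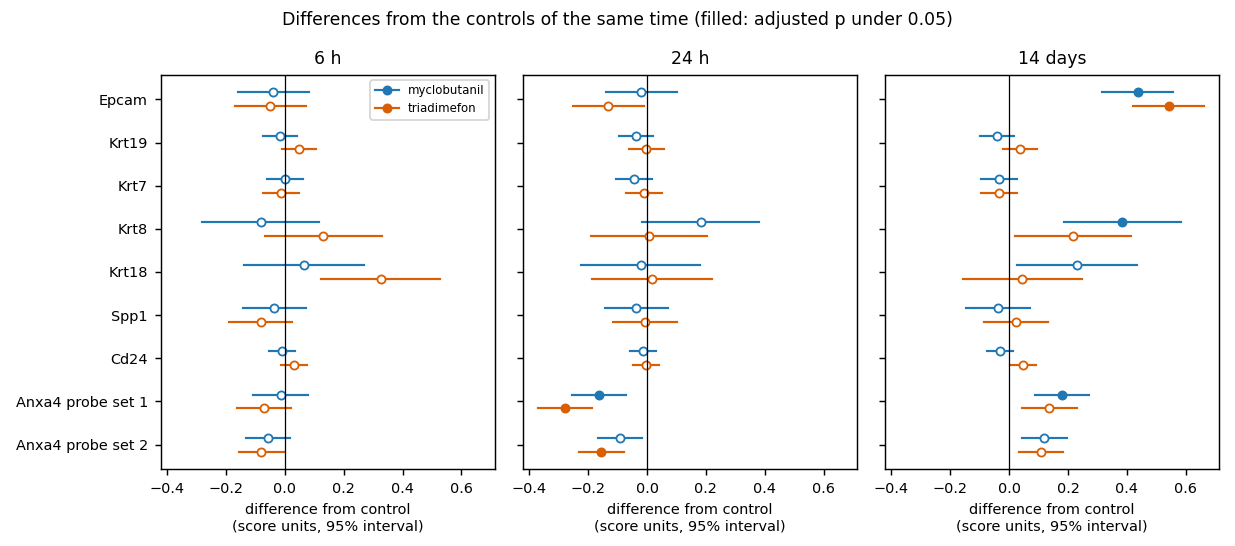
Difference of each member probe set from the controls of the same time, in score units, with its 95% interval, at 6 h, 24 h and 14 days. Blue stands for myclobutanil and orange for triadimefon; filled points passed an adjusted p of 0.05. Epcam stands at 0.44 and 0.54 at 14 days, Anxa4 probe set 1 goes from -0.16 and -0.28 at 24 h to 0.18 and 0.14 at 14 days, and the intervals of Krt19, Krt7 and Spp1 cross 0 throughout.

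Few or none of the other bile duct genes passed the test at 14 days, at counts near the share called over all probe sets. Of the 9 member probe sets, 3 passed with myclobutanil (Epcam, Krt8 and Anxa4 probe set 1), where 0.792% of all probe sets did, and 1 with triadimefon (Epcam), where 6.69% did. Among the 24 other bile duct genes measured, a list drawn up with earlier results known, 0 passed in either direction with myclobutanil (limma; 4 had an unadjusted p under 0.05). With triadimefon, 1 rose and 1 fell. The gene that rose was Slc4a2, the chloride-bicarbonate exchanger (0.13, limma, adjusted p = 0.0197), and the one that fell was Elf3, an epithelial transcription factor (-0.06, adjusted p = 0.0222); both missed the threshold after quantile normalization (adjusted p = 0.0688 and 0.0557). The list's median difference was -0.01 with myclobutanil and -0.02 with triadimefon, against a median over all probe sets of 0.01 and -0.01. At 24 h 0 of the 24 passed with myclobutanil (limma; 1 had an unadjusted p under 0.05), and with triadimefon Elf3 rose by 0.06 (adjusted p = 0.0136) and Cldn3, a tight junction claudin, fell by 0.29 (adjusted p = 0.0254), a call lost after quantile normalization (-0.19, adjusted p = 0.101). Over all probe sets 8.47% passed with myclobutanil and 7.98% with triadimefon at 24 h. At 6 h 0 of the 24 genes passed with either compound on the deposited scale, and 3 had an unadjusted p (limma) under 0.05 in each. Over all probe sets 0.38% passed with myclobutanil and 0.915% with triadimefon at 6 h. Quantile normalization also added calls. Slc4a2 rose at 24 h of myclobutanil (0.09, limma, adjusted p = 0.0494), where 6.05% of all probe sets rose on that scale. Cldn4 fell at 24 h of triadimefon (-0.06, adjusted p = 0.0488), where 4.58% fell. Cdh1 fell at 6 h of myclobutanil (-0.34, adjusted p = 0.0366), where 0.564% fell. At 14 days the list's mean score per array ran from 0.227 to 0.269 in controls, 0.211 to 0.302 with myclobutanil and 0.234 to 0.273 with triadimefon.

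Among genes of progenitor and fetal liver at 14 days, the counts were also near the shares over all probe sets (0.792% with myclobutanil and 6.69% with triadimefon). Of 16 measured, 0 passed with myclobutanil (limma; 1 had an unadjusted p under 0.05) and 1 fell with triadimefon, the neural adhesion molecule Ncam1 (-0.08, limma, adjusted p = 0.0374). At 24 h 1 rose and 1 fell with myclobutanil, where 3.05% of all probe sets rose and 5.42% fell. With triadimefon at 24 h 1 rose and 3 fell, where 2.24% of all probe sets rose and 5.75% fell. Tnfrsf12a, the receptor of the cytokine TWEAK, rose with both compounds (0.15 and 0.13), and Alcam, an adhesion molecule, fell with both (-0.33 and -0.27). After quantile normalization the triadimefon value of Alcam missed the threshold (-0.16, adjusted p = 0.0539). Afp, the main plasma protein of fetal liver, fell by 0.28 with triadimefon at 24 h (limma, adjusted p = 0.00661), and Igf2bp3, a fetal RNA-binding protein, fell by 0.55 (adjusted p = 0.0214). Markers of the mesothelium, a keratin-bearing layer that covers the liver, passed in 0 of 6 genes with myclobutanil at 14 days (limma; 0 had an unadjusted p under 0.05) and in 1 with triadimefon, Wt1, which fell (-0.08, adjusted p = 0.0393) and missed the threshold after quantile normalization (adjusted p = 0.0716).

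Krt8 and Krt18, the keratin pair of hepatocytes, were the brightest members, with mean scores of 1.91 and 2.36. Krt8 on arrays 1 to 5 scored 1.63, 1.69, 1.72, 1.71 and 1.78 in the 14-day controls. With myclobutanil it scored 2.02, 2.18, 1.87, 2.60 and 1.79, and with triadimefon 1.85, 1.88, 1.78, 1.96 and 2.15. All 5 myclobutanil arrays were above all 5 controls, the lowest of them barely, and array 4 stood far above the rest; the triadimefon group touched the control range. The difference was 0.38 with myclobutanil (SE 0.10, limma, adjusted p = 0.046) and 0.22 with triadimefon (adjusted p = 0.168). Above the highest of the 15 controls of the 3 times (2.16) were 2 myclobutanil arrays and 0 triadimefon arrays. The control mean of Krt8 was 1.85 at 6 h, 1.91 at 24 h and 1.71 at 14 days.

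The Krt8 call at 14 days of myclobutanil was lost in 8 of the 10 fits that left out 1 array, and without array 4 the difference was 0.26 (limma, adjusted p = 0.289). After quantile normalization it was 0.25 (adjusted p = 0.0414) and the groups overlapped. Arrays 4 and 2 of that group also had the highest scores at the start of the brightest 1%, 3.41 and 3.34, where the 14-day controls ran from 2.83 to 3.15. The 13 hepatocyte genes were all higher in that group on the deposited scale, with a median difference of 0.15, and 0 of them passed the threshold (limma; 0 had an unadjusted p under 0.05); after quantile normalization their median difference was 0. Beyond this normalization, the part of the stretch in the Krt8 value was not tested.

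At 24 h Krt8 gave a call on 1 scale only. The controls scored 1.83, 2.16, 1.83, 1.73 and 2.01, and the myclobutanil arrays 2.16, 2.04, 2.22, 2.03 and 2.01. Array 2 of the controls, which had the highest start of the brightest 1% among all 45 arrays (3.52), was within the treated range. The difference was 0.18 (limma, adjusted p = 0.28) on the deposited scale and 0.29 (adjusted p = 0.00229) after quantile normalization, where the groups did not overlap. With triadimefon at 24 h the difference was 0.01 (adjusted p = 0.98).

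Krt18, the acidic partner, showed its largest difference at another time and with the other compound. At 6 h the controls scored 2.07, 2.56, 2.37, 2.15 and 2.26, and the triadimefon arrays 2.81, 2.57, 2.54, 2.46 and 2.64. All 5 treated arrays were above 4 of the controls, and arrays 3 and 4 of them were below control array 2. The difference was 0.33 (SE 0.10, limma, adjusted p = 0.114), and after quantile normalization it was 0.32 (adjusted p = 0.000626) with no overlap. Without control array 2 it was 0.39 (limma, adjusted p = 0.0467). At that time 0 of the 9 member probe sets passed with triadimefon on the deposited scale (limma; 2 had an unadjusted p under 0.05), against 0.915% of all probe sets, and 0 with myclobutanil (0 with an unadjusted p under 0.05), against 0.38%. Of the scans in these groups, 3 of 5 triadimefon and 3 of 5 myclobutanil arrays carried the scan file-name ending 12, and no control array did. Control array 2 had ending 31 and control array 3 ending 21, each the only array of the series with its ending. Within the arrays of ending 11 alone, 2 triadimefon against 3 control, the Krt18 difference was 0.39 (limma, adjusted p = 0.764). With the ending as a covariate it was 0.47 (limma, adjusted p = 0.147). That value rests on control arrays 1, 4 and 5, because control arrays 2 and 3 were each fitted by an ending of their own.

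At 14 days Krt18 scored 2.25, 2.30, 2.21, 2.16 and 2.26 in controls, 2.48, 2.60, 2.34, 2.82 and 2.08 with myclobutanil, and 2.35, 2.21, 2.23, 2.21 and 2.41 with triadimefon. Myclobutanil array 5 was below all 5 controls while the other 4 were above them. The differences were 0.23 (limma, adjusted p = 0.309) and 0.04 (adjusted p = 0.826). Over the 45 arrays Krt8 and Krt18 had a Pearson r of 0.70, which fell to 0.44 after quantile normalization; the arrays share their stretch, and r is given as a description. After taking out the group means, r was 0.82 on the deposited scale and 0.58 after quantile normalization. Among the 35 pairs of probe sets from different members, the median r was 0.11 on the deposited scale, where Krt8 and Krt18 had the highest. After quantile normalization Epcam and Anxa4 probe set 2 had the highest, 0.54.

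**Figure D3:**
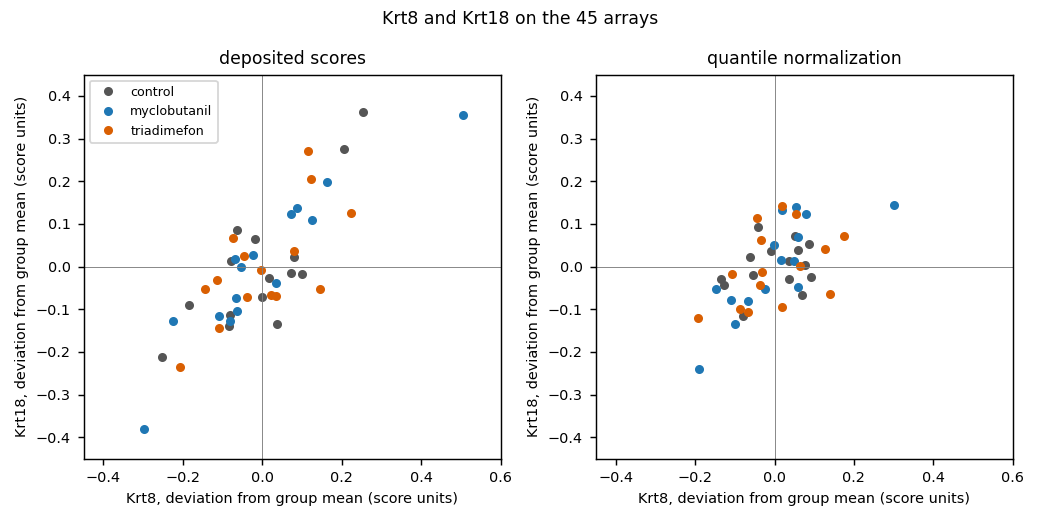
Krt8 (x axis) and Krt18 (y axis) on the 45 arrays, each as its deviation from the group mean in score units, on the deposited scale (left) and after quantile normalization (right). Each point is 1 array, coloured by treatment. The points follow a line more closely on the left (r = 0.82) than on the right (r = 0.58).

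The other keratins and the desmosome genes, which anchor keratin filaments at cell contacts, gave 1 call with myclobutanil and 3 with triadimefon at 14 days, where 0.792% and 6.69% of all probe sets passed. Of 17 measured, 1 rose with myclobutanil, the desmosomal cadherin Dsg2 (0.26, limma, adjusted p = 0.0228), which missed the threshold after quantile normalization (0.17, adjusted p = 0.159). With triadimefon 2 rose, the desmosomal cadherins Dsc2 (0.33, limma, adjusted p = 0.0112) and Dsg2 (0.23, adjusted p = 0.0157; 0.0502 after quantile normalization), and Krt17, an acidic keratin of basal epithelia, fell (-0.09, adjusted p = 0.00462). The list's median difference was 0.03 and -0.01. At 6 h 0.38% and 0.915% of all probe sets passed with myclobutanil and triadimefon, and at 24 h 8.47% and 7.98%. Of the 17 genes, 0 passed at either time with either compound, and 1 or 2 had an unadjusted p (limma) under 0.05 in each. After quantile normalization 2 rose at 24 h of triadimefon, where 4.45% of all probe sets rose on that scale. These were Dsc2 (0.22, limma, adjusted p = 0.034) and the filament linker Plec (0.09, adjusted p = 0.0359).

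Anxa4, the calcium-dependent membrane-binding protein, fell at 24 h, and its treated means at 14 days were above those of the controls of that time. Probe set 1 scored 0.927, 1.08, 0.935, 0.964 and 1.04 in the 24 h controls. With myclobutanil it scored 0.809, 0.925, 0.942, 0.682 and 0.769, and with triadimefon 0.678, 0.756, 0.726, 0.728 and 0.665. The triadimefon arrays did not overlap with these controls and all 5 were below the lowest of the 15 controls of the study (0.772), whereas 1 myclobutanil array lay within the control range. The difference was -0.16 with myclobutanil (SE 0.05, limma, adjusted p = 0.0179) and -0.28 with triadimefon (SE 0.05, adjusted p = 0.000106).

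Probe set 2 of Anxa4 gave the same direction. The 24 h controls scored 0.538, 0.678, 0.572, 0.671 and 0.692, the myclobutanil arrays 0.528, 0.568, 0.633, 0.486 and 0.471, and the triadimefon arrays 0.412, 0.513, 0.490, 0.535 and 0.424. Triadimefon and control did not overlap, by a small margin, and myclobutanil and control did. The difference was -0.16 with triadimefon (SE 0.04, limma, adjusted p = 0.00672) and -0.09 with myclobutanil (adjusted p = 0.122). After quantile normalization the triadimefon differences were -0.22 (limma, adjusted p = 0.000291) and -0.12 (adjusted p = 0.0304) for the probe sets in turn, and the myclobutanil difference of probe set 1 was -0.12 (adjusted p = 0.0578). In the fit of the compared groups alone the triadimefon call of probe set 2 was lost (adjusted p = 0.0666). The myclobutanil call of probe set 1 was also lost without control array 2, control array 5, myclobutanil array 4 or myclobutanil array 5, with adjusted p up to 0.0793. At 24 h the members passed in 1 of 9 probe sets with myclobutanil, against 8.47% of all probe sets, and in 2 of 9 with triadimefon, against 7.98%, so the 24 h calls stood in comparisons with many calls.

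Kupffer cell markers, which mark resident liver macrophages, moved at the same time with myclobutanil. All 9 measured Kupffer and macrophage genes fell at 24 h of myclobutanil (median difference -0.43), where 5.42% of all probe sets fell. The mean of the 9 genes per array ran from 0.824 to 1.11 against 1.16 to 1.67 in controls. With triadimefon at 24 h 0 of 9 passed (limma, 0 with an unadjusted p under 0.05), where 7.98% of all probe sets did. The mean of the 9 genes there ran from 1.15 to 1.56. Their part in the Anxa4 values was not tested.

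At 14 days Anxa4 probe set 1 scored 0.925, 0.794, 0.854, 0.801 and 0.909 in controls, 1.08, 1.05, 0.898, 1.11 and 1.03 with myclobutanil and 0.889, 1.02, 1.04, 0.947 and 1.08 with triadimefon. In both treated groups 1 array lay within the control range and the others above it. The difference was 0.18 with myclobutanil (SE 0.05, limma, adjusted p = 0.0463) and 0.14 with triadimefon (adjusted p = 0.0584). The myclobutanil call did not hold on the quantile scale (0.12, limma, adjusted p = 0.128) or in 8 of the 10 fits that left out 1 array, with differences from 0.16 to 0.21 and adjusted p up to 0.221. Probe set 2 scored 0.632, 0.565, 0.559, 0.556 and 0.571 in controls, 0.748, 0.673, 0.693, 0.654 and 0.71 with myclobutanil and 0.633, 0.762, 0.744, 0.627 and 0.661 with triadimefon. Its differences, 0.12 and 0.11, missed the threshold (limma, adjusted p = 0.119 and 0.0665). For this probe set 1 myclobutanil array and 2 triadimefon arrays were above the highest of the 15 controls (0.728).

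The change of the Anxa4 difference between 24 h and 14 days passed the test with both compounds. It was 0.34 for probe set 1 (limma interaction, adjusted p = 0.00159) and 0.21 for probe set 2 (adjusted p = 0.015) with myclobutanil. With triadimefon it was 0.42 (limma interaction, adjusted p = 9.82e-05) and 0.26 (adjusted p = 0.00132). After quantile normalization the myclobutanil value of probe set 2 missed the threshold (0.15, adjusted p = 0.0984). The control mean of probe set 1 was 0.989 at 24 h and 0.856 at 14 days, and that of probe set 2 was 0.630 and 0.576. The part of the controls in this change was not tested. Between 24 h and 6 h, 0 of 9 member differences passed with either compound (limma; 1 with myclobutanil and 2 with triadimefon had an unadjusted p under 0.05), against 1.75% and 3.13% of all probe sets. In the comparison of 14 days with 24 h, 3 of 9 member probe sets passed with each compound, Epcam and both of Anxa4, against 4.56% of all probe sets with myclobutanil and 12.7% with triadimefon.

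The list of other annexins and their S100 partners held 12 measured genes. At 24 h 6 fell with myclobutanil and 1 rose, and 4 fell with triadimefon and 1 rose. Over all probe sets 5.42% fell and 3.05% rose with myclobutanil, and 5.75% fell and 2.24% rose with triadimefon. At 6 h Anxa1 rose with triadimefon (0.19, limma, adjusted p = 0.04; 0.0136 after quantile normalization). Anxa1 fell at 24 h with both compounds (-0.17 and -0.16, limma, adjusted p = 0.0202 and 0.0335). Also at 24 h, Anxa3 fell most with myclobutanil (-0.38, limma, adjusted p = 0.000581) and Anxa2 with triadimefon (-0.22, adjusted p = 0.00243). S100a10, the partner of Anxa2, fell with both (-0.16 each; -0.12 and -0.11 after quantile normalization). Anxa7 was the gene that rose at 24 h, by 0.27 and 0.16, and it also rose at 14 days, by 0.29 with myclobutanil (limma, adjusted p = 0.00122) and by 0.32 with triadimefon (adjusted p = 6.87e-05). At 14 days Anxa8 fell with triadimefon (-0.11, adjusted p = 0.00545) and the rest of the list did not pass. The list's median difference at 24 h was -0.14 with myclobutanil and -0.12 with triadimefon, against -0.01 and -0.004 over all probe sets.

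**Figure D4:**
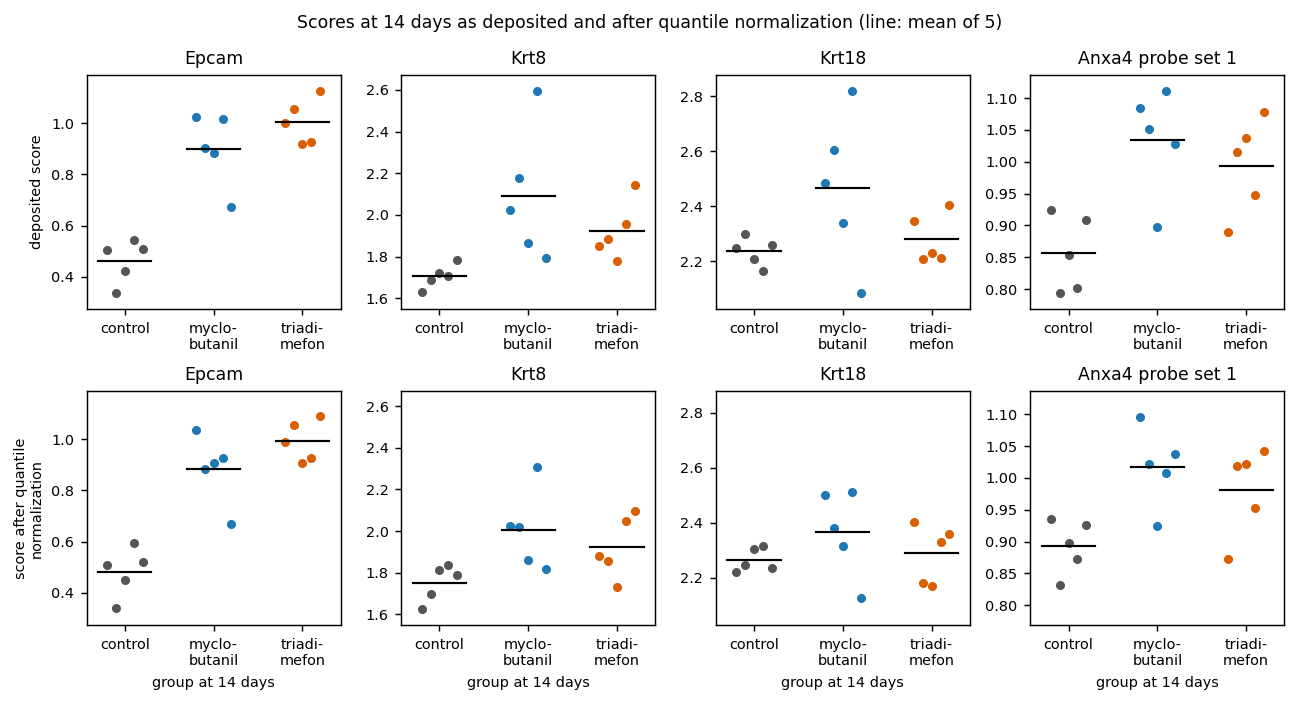
Scores of Epcam, Krt8, Krt18 and Anxa4 probe set 1 on the 15 arrays of 14 days, as deposited (top) and after quantile normalization (bottom). Each point is 1 array, each line the mean of 5, and each column of panels keeps 1 axis. Epcam keeps its gap on both scales (differences of 0.44 and 0.54 above, 0.40 and 0.51 below), and the high myclobutanil array of Krt8 (2.60 as deposited) comes closer to the others.

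Krt19 and Krt7, the keratins of the duct lining, had mean scores of -0.0815 and -0.110, below the array middle, with a spread within groups of 0.0455 and 0.0485. Over the 6 treatment comparisons the Krt19 difference ran from -0.04 to 0.05 and its 95% bounds from -0.10 to 0.11, with an adjusted p (limma) of 0.459 at lowest. The Krt7 difference ran from -0.04 to 0.00 (95% bounds -0.11 to 0.06) with a lowest adjusted p of 0.432. Cd24, with a mean score of -0.118, ran from -0.03 to 0.05 (95% bounds -0.08 to 0.09), with a lowest adjusted p of 0.189. Its interval at 14 days of triadimefon did not cross 0 (0.002 to 0.091, limma, unadjusted p = 0.041). After quantile normalization that difference was 0.06 (limma, adjusted p = 0.0768). For these 3 genes the signal was among the dimmer part of the array, so what these intervals bound is the change of a dim score.

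Spp1, osteopontin, had a mean score of 0.101 and differences from -0.08 to 0.02 (95% bounds -0.19 to 0.13, limma, lowest adjusted p = 0.614). Its widest group was the 24 h controls, which ran from 0.0363 to 0.384 around a median of 0.0667. Of 9 integrins and other receptors that bind osteopontin, 1 rose at 24 h of triadimefon, Itga9 (0.08, limma, adjusted p = 0.0186). At 14 days of triadimefon 1 rose, Itgav, the alpha V integrin (0.19, limma, adjusted p = 0.0113). These counts are near the shares of all probe sets that passed with triadimefon, 7.98% at 24 h and 6.69% at 14 days. With myclobutanil 0 of 9 passed at 24 h and at 14 days, where 8.47% and 0.792% of all probe sets did. An unadjusted p (limma) under 0.05 was reached by 2 and 1 of the 9.

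The Notch and Hippo pathways, through which biliary fate and Sox9 are known to be controlled, were covered by a list of 21 genes. Of these, 0 passed with myclobutanil at 24 h or at 14 days, where 8.47% and 0.792% of all probe sets did. An unadjusted p (limma) under 0.05 was reached by 1 and 2 of the 21. With triadimefon at 14 days Stk3, a Hippo kinase, rose by 0.12 (limma, adjusted p = 0.038) and Heyl, a Notch target repressor, fell by 0.07 (adjusted p = 0.037), 2 of 21 where 6.69% of all probe sets passed. At 6 h and 24 h of triadimefon 0 passed on the deposited scale, where 0.915% and 7.98% of all probe sets did. An unadjusted p (limma) under 0.05 was reached by 4 and 3 of the list. After quantile normalization the Hippo kinases Stk4 (0.12, limma, adjusted p = 0.0276), Lats1 (0.11, adjusted p = 0.00729) and Lats2 (0.11, adjusted p = 0.0354) rose at 24 h. On that scale 4.45% of all probe sets rose. Lats2 (0.12, limma, adjusted p = 0.0479) also rose at 6 h, where 1.71% of all probe sets rose on that scale.

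Between the compounds, 0 of the 9 member probe sets passed at 6 h, 24 h or 14 days (limma; 3, 1 and 2 had an unadjusted p under 0.05), against 0.251%, 1.06% and 0.332% of all probe sets. The doses differed, so this compares the treatments as given. At 14 days the difference of triadimefon from myclobutanil in Cd24 was 0.08 (95% interval 0.03 to 0.12, adjusted p = 0.116), with no overlap between the groups, and 0.09 (adjusted p = 0.0387) after quantile normalization. Krt8 and Krt18 were lower with triadimefon by 0.17 (95% interval -0.37 to 0.03) and 0.19 (-0.39 to 0.02), within the error. In the controls alone, 0 of 9 passed between 24 h and 6 h or between 14 days and 6 h (limma; 0 and 0 had an unadjusted p under 0.05), against 2.78% and 3.33% of all probe sets.

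The genes most like each member over the 45 arrays were found from Pearson r, as a description of arrays that share their stretch and treatment. For Epcam these were App, the amyloid precursor protein (r = 0.87, 0.86 after quantile normalization), Sbspon (0.82 and 0.85) and Capn2, a calpain protease (0.82 and 0.84). Within groups, with the group means removed, their r with Epcam was 0.61, 0.28 and 0.53 (0.55, 0.30 and 0.37 after quantile normalization). For Krt18 they were Arf4 (0.85), Copa (0.84) and Sar1a (0.82), which act in vesicle traffic between the endoplasmic reticulum and the Golgi, and for Krt8 Nckap1 (0.84), the chaperonin subunit Cct7 (0.84) and Irak1 (0.83). After quantile normalization those 6 values lay between 0.62 and 0.72, and with the group means also removed between 0.23 and 0.54. For Anxa4 probe set 1 they were Mrpl30 (0.83), Zfyve21 (0.81) and Mpv17 (0.80), with 0.77, 0.70 and 0.70 after quantile normalization. With the group means removed these were 0.63, 0.62 and 0.37 on the deposited scale, and 0.44, 0.36 and -0.03 after quantile normalization. The dim or flat members had lower values: the highest were 0.64 for Krt7 (Ptpn22), 0.60 for Krt19 (Ankhd1), 0.56 for Cd24 (an uncharacterised Riken gene) and 0.56 for Spp1 (Pkd2, its neighbour in the annotation). The 2 Anxa4 probe sets had an r of 0.85 with each other.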

How the data were processed

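Total liver RNA of 45 samples (9 groups of 5) was hybridized to 45 arrays, per the labels' protocols. The authors deposited 1 score per probe set and array; the log base, the background correction and the normalization behind the score are not given in the sources used here. Of 31099 probe sets, 57 controls were left out and 31042 were tested. Platform annotation gave 1 gene to 20826, several to 436 and none to 9780.

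Scores were fitted as deposited with limma 3.58.1 (lmFit, contrasts, eBayes) in R 4.3.3, all 9 groups in 1 model, without covariates, with Benjamini-Hochberg adjustment over all probe sets; 15 comparisons were made. The fit was tested on simulated scores with known shifts and independent noise. These held no shared array stretch and no shared livers, so the test cannot show how either affects the p-values here. The alternatives were quantile normalization, a filter on dim probe sets, robust moderation with a trend, the replicate number as a block, the scan file-name ending as a covariate or restricted to 11, only the groups compared, a threshold of 0.01, and leaving out each array. Same-numbered arrays correlated between -0.374 and 0.344 in their deviations, with at most 3 of 5 pairs over 0.1, so numbers were not treated as pairs. Likeness was searched for each member's probe set of highest mean among probe sets with 1 gene, and the 3 genes of highest r were named. Of each list, at most 4 genes with the smallest adjusted p were named among those past the threshold; genes outside that rule were chosen after their values were seen. Of 201 list entries in 14 lists, 174 had a probe set. Promoter windows came from RefSeq (GRCr8). The members and lists were chosen with earlier results of these data known. The number of arrays limits the precision.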

Additional observations from a re-analysis of the deposited data

Results flagged for a closer look

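Of 81 groups of 5 member scores, 6 held 1 array apart from the other 4; chance gives about 1 in 20 groups. For Epcam these were triadimefon array 1 at 6 h (0.574, nearest 0.532) and triadimefon array 4 at 24 h (0.408, nearest 0.508). For Krt19 it was triadimefon array 2 at 6 h (-0.0725, nearest -0.0429), and for Krt7 control array 3 at 14 days (-0.163, nearest -0.0759). For Krt18 it was control array 2 at 24 h (2.70, nearest 2.32), the array with the highest start of the brightest 1% (3.52). For Anxa4 probe set 2 it was control array 1 at 14 days (0.632, nearest 0.571).

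The difference from control moved upward between 24 h and 14 days, by the limma interaction, for 2 genes with both compounds. It moved by 0.46 (myclobutanil) and 0.67 (triadimefon) for Epcam, by 0.34 and 0.42 for Anxa4 probe set 1 and by 0.21 and 0.26 for Anxa4 probe set 2. For Anxa4 this was a change of sign. Probe set 1 went from -0.16 and -0.28 at 24 h to 0.18 and 0.14 at 14 days. Probe set 2 went from -0.09 and -0.16 to 0.12 and 0.11. Both compounds were compared with the same controls, so the 2 sets of values are not independent.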

How the results depend on the processing

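Epcam at 14 days kept its direction and its call under every alternative run, with adjusted p (limma) up to 0.0161 for myclobutanil and 0.000286 for triadimefon, both in the fit of the compared groups alone; leaving out 1 array gave 0.40 to 0.49 and 0.51 to 0.56. With the replicate block, which pairs arrays that share only a number, the adjusted p was 6.78e-05 and 4.32e-07, and no count of member calls changed. The count of member probe sets called changed as follows. Quantile normalization gave 1 in place of 0 for triadimefon at 6 h (Krt18), for triadimefon against myclobutanil at 14 days (Cd24) and for the myclobutanil difference at 24 h against 6 h (Krt8), and 2 in place of 3 for myclobutanil at 14 days and for its difference at 14 days against 24 h. Fitting the compared groups alone gave 0 in place of 1 for myclobutanil at 24 h, 1 in place of 2 for triadimefon at 24 h, 1 in place of 3 for myclobutanil at 14 days and 2 in place of 1 for triadimefon at 14 days. A threshold of 0.01 gave 0 for myclobutanil at 24 h and 1 for myclobutanil at 14 days, and 2 in place of 3 for the myclobutanil difference at 14 days against 24 h. For triadimefon at 14 days the filter on dim probe sets gave 2, the scan ending as a covariate 3 and arrays of ending 11 alone 2, the added calls being Anxa4. The filter also gave 1 in place of 0 for the triadimefon difference at 24 h against 6 h. Leaving out 1 array gave 0 to 1 for triadimefon at 6 h, 0 to 1 for myclobutanil at 24 h, 1 to 3 for myclobutanil at 14 days, 1 to 2 for triadimefon at 14 days (2 without triadimefon array 1) and 0 to 1 for the triadimefon difference at 24 h against 6 h (1 without control array 2 of 6 h or control array 1 of 24 h). Apart from the filters, thresholds and smaller fits themselves, the cause was not tested. No result changed sign past the threshold. Over all probe sets, quantile normalization moved the count called from 118 to 441 (myclobutanil, 6 h), 284 to 828 (triadimefon, 6 h), 78 to 234, 328 to 1117 and 103 to 292 (between compounds at 6 h, 24 h and 14 days), 863 to 1395 and 1035 to 1634 (controls over time) and 542 to 1251 (myclobutanil, 24 h against 6 h). Fitting the compared groups alone lowered it from 2628 to 1250 and 2478 to 491 (myclobutanil and triadimefon, 24 h), 246 to 110 (myclobutanil, 14 days), 328 to 190 and 103 to 11 (between compounds, 24 h and 14 days), 863 to 164 and 1035 to 596 (controls), 542 to 340 and 972 to 321 (24 h against 6 h) and 1417 to 843 (myclobutanil, 14 days against 24 h). The scan ending as a covariate lowered it from 118 to 40 and 284 to 35 at 6 h, 863 to 413 (controls, 24 h against 6 h) and 542 to 307. Arrays of ending 11 alone lowered it from 118 to 20 and 284 to 9 at 6 h, 78 to 8 and 103 to 35 (between compounds, 6 h and 14 days), 863 to 405 and 972 to 22.

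The mean scores of Krt19 (-0.0815), Krt7 (-0.110) and Cd24 (-0.118) lie below the array middle, and what a dim score misses of their RNA was not tested. The log base and the number of livers behind the 45 arrays are not settled by the labels.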

Other observations

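The cell cycle genes, a list kept beside the progenitor markers, rose at 24 h and not at 14 days. Of 17 measured, 17 rose at 24 h of myclobutanil (median difference 0.41) and 7 at 24 h of triadimefon (0.18), where 3.05% and 2.24% of all probe sets rose. At 14 days, when Epcam was high, 0 of 17 passed with either compound (limma, 1 with an unadjusted p under 0.05 in each). Over all probe sets 0.792% and 6.69% passed. The median differences of the list were -0.03 and -0.02.

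Other cell types gave the counts below. Over all probe sets 8.47% passed with myclobutanil and 7.98% with triadimefon at 24 h, and 0.792% and 6.69% at 14 days. Of 13 hepatocyte genes, Cebpa fell at 24 h of triadimefon (-0.38), a call lost after quantile normalization (limma, adjusted p = 0.0546). On that scale Cps1 fell at 24 h of myclobutanil (-0.22) and triadimefon (-0.16) and at 14 days of triadimefon (-0.11). At 24 h Asgr2 fell with myclobutanil (-0.09) and Hnf4a rose with triadimefon (0.19), also on that scale. There 10.8% and 9.03% of all probe sets passed at 24 h, and 9.15% at 14 days of triadimefon. Of 11 stellate cell and fibroblast genes, Pdgfrb fell at 24 h with myclobutanil (-0.15) and triadimefon (-0.14), and Acta2, smooth muscle actin, fell at 14 days of triadimefon (-0.14). Of 7 endothelial genes, Lyve1 (-0.20, -0.12 after quantile normalization) and Pecam1 (-0.11) fell at 24 h of myclobutanil, and Pecam1 (0.15) and Stab1 (0.12) rose at 14 days of triadimefon, Stab1 missing the threshold after quantile normalization (adjusted p = 0.0536). Of 9 lymphocyte and neutrophil genes, S100a9 (-0.24) and S100a8 (-0.15) fell at 24 h of myclobutanil and S100a9 (-0.21) at 24 h of triadimefon. Of 3 blood genes, 0 passed in the 6 comparisons with control (limma; 1 had an unadjusted p under 0.05 at 24 h with each compound).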
